A study of Mus musculus with 2 samples.

Results

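The CCN matricellular family was followed through 2 digital gene expression (DGE) libraries, 1 from each of 2 mouse cell lines that were made from male germ cells. Members were taken by gene symbol, *Ccn1* (older name *Cyr61*), *Ccn2* (*Ctgf*), *Ccn3* (*Nov*), *Ccn4* (*Wisp1*) and *Ccn5* (*Wisp2*), and all 5 were among the 14450 genes with a tag. The family was selected on its tag counts in these same libraries, so the levels and ratios of its members are a description and carry no test. The related gene *Ccn6* (*Wisp3*) has 4 CATG tags in its transcript and had no tag in either library.

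CCN proteins are secreted into the extracellular matrix, where they act on cells through integrins and heparan sulphate proteoglycans rather than as structural fibres. They are built from modules that resemble insulin-like growth factor binding proteins, von Willebrand factor type C repeats, thrombospondin type 1 repeats and a C-terminal cystine knot. *Ccn1* and *Ccn2* are well known for their rapid response to serum, to the YAP/TAZ-TEAD and SRF transcription factors and to TGF-beta. *Ccn4* and *Ccn5* were named for their response to Wnt-1, and *Ccn5* lacks the cystine knot. Its coding sequence is 753 bases, against 1044 bases for *Ccn2*, 1062 for *Ccn3*, 1101 for *Ccn4* and 1137 for *Ccn1*.

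The GC-1spg line goes back to type B spermatogonia, and its donor mouse was 10 days old. The plasmid pSV3-neo was used to transform it. For GC-2spd (ts) the starting cells were spermatocytes, the donor was 6 weeks old, and the transforming gene was SV40 large T antigen. Both were grown in DMEM with sodium bicarbonate (1.5 g/L) and serum (10% FBS), and the RNA had a mean integrity number of 8.9. No source used here gives the strain of the mice, and each line is an immortalised culture represented by 1 library, so no difference has a replicate check and every comparison is between those 2 libraries.

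In this assay *Nla*III cuts cDNA at CATG, and *Mme*I releases CATG with the 17 bases after it as a tag of 21 bases. A transcript ideally gives 1 tag whatever its length, so levels of different genes can be set side by side without a length correction. The libraries hold 5072149 clean tags for GC-1spg and 4726808 for GC-2spd (ts), and levels are in TPM, clean tags scaled to a library of 1000000, with 1 copy worth 0.197 TPM and 0.212 TPM. Tags with a single copy had been removed, so the smallest copy number is 2. All intervals are exact 95% intervals and hold for the counting error of tags alone. With 1 library per line they leave out variation between cultures and preparations. Copies made by PCR from the same molecule are counted separately, so the intervals may be too narrow for molecules.

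The germ cell origin on the labels was checked against markers. None of 16 germ cell markers had a tag of its own in either library, and 5 of them had only tags shared with other genes. Such shared tags numbered at most 112 for a germ cell marker in a library. With sense matches preferred over antisense ones, 2 germ cell markers were listed, with 5 and 11 tags in all. Fibroblast markers were listed for 8 of 10 genes and summed to 3007 TPM in GC-1spg against 1633 TPM in GC-2spd (ts), a sum carried by *Col1a1* (10465 and 2425 tags). By gene they were split, with *Vim*, *Col3a1* and *Pdgfrb* past both thresholds as higher in GC-2spd (ts), *Dcn* and *Col1a1* as lower, and a median log2 ratio of 0.29. Sertoli cell markers (7 of 8) summed to 340 and 97.7 TPM, with 1 past both thresholds as higher and 4 as lower. Peritubular myoid markers (5 of 6) summed to 13.0 and 122 TPM. *Acta2* alone gave 50 of these 66 tags and 555 of these 579, and the other members listed had at most 15 tags in a library. With sense matches preferred, the myoid list summed to 71 and 795 tags. The added tags were not broken down by gene, so the share of *Acta2* holds for the main matching only. Leydig (2 of 6) and endothelial (1 of 5) markers summed to at most 1.06 TPM, and 0 of 5 macrophage markers were listed. *Ddx4*, *Dazl* and *Stra8*, which define germ cells, were among those without a tag. The part of these differences in the CCN levels was not tested.

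The tags that carried most of the counts of the 4 abundant members are shown first because they are the sequences that were counted. Capitals mark the *Nla*III site and all lie in the 3′ UTR in the last exon.
Ccn1 main tag: CATGtttacggatgacgttct
Ccn2 main tag: CATGtttgcacctttctagtt
Ccn4 main tag: CATGatgagttttcattgttc
Ccn4 upstream tag: CATGaagtccttcctcagatg
Ccn5 main tag: CATGagagagacaaggaacag

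On GRCm38 the *Ccn1* tag is at chr3:145647376-145647396 on the minus strand, and the others are on plus strands, the *Ccn2* tag at chr10:24598629-24598649, the *Ccn4* main tag at chr15:66923126-66923146, the *Ccn4* upstream tag at chr15:66919797-66919817 and the *Ccn5* tag at chr2:163833064-163833084. The main tags lie at the CATG nearest the 3′ end, 421 bases from it in *Ccn1*, 50 in *Ccn2*, 76 in *Ccn4* and 83 in *Ccn5*.

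*Ccn1*, an adhesive and angiogenic member, had 212 tags in GC-1spg, a level of 41.8 TPM (36.4 to 47.8). In GC-2spd (ts) it had 2052 tags, a level of 434 TPM (416 to 453). The GC-2spd (ts) level was 10.4-fold higher (9.01 to 12.0), and the gene went from rank 2851 of 13066 listed genes to rank 156 of 12757. *Ccn2*, known for its part in fibrosis and matrix production, had 196 tags or 38.6 TPM (33.4 to 44.4) in GC-1spg and 990 tags or 209 TPM (197 to 223) in GC-2spd (ts). It was 5.42-fold higher in GC-2spd (ts) (4.65 to 6.35), at rank 497 against rank 3049. Both genes were higher in GC-2spd (ts) than in GC-1spg. On the log2 scale the ratio was 3.38 (3.17 to 3.59) for *Ccn1* and 2.44 (2.22 to 2.67) for *Ccn2*.

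*Ccn4*, known for roles in bone and mesenchymal cells, ran the other way. It had 1085 tags in GC-1spg, a level of 214 TPM (201 to 227), and 446 tags in GC-2spd (ts), a level of 94.4 TPM (85.8 to 104). The GC-2spd (ts) level was 2.27-fold lower (2.03 to 2.54), with a log2 ratio of -1.18 (-1.34 to -1.02), and the rank fell from 412 to 1391. *Ccn5*, a member with growth-restraining activity in smooth muscle, had no listed tag in GC-1spg and 319 tags in GC-2spd (ts), a level of 67.5 TPM (60.3 to 75.3) at rank 2065. Set against a floor of 3 counts in the GC-1spg library (0.591 TPM), the GC-2spd (ts) level was 114-fold higher. The exact upper limit for 0 tags in GC-1spg was 0.727 TPM, above that floor, so 114-fold is no lower bound. Its tags came from 3 sites in GC-2spd (ts), and a limit that allows 1 removed single copy at each of them lowers the bound to 44.1-fold, an alternative chosen after seeing the data.

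*Ccn3*, a member often linked to growth arrest, was near the floor in both libraries with 10 tags each, 1.97 TPM (0.945 to 3.63) in GC-1spg and 2.12 TPM (1.01 to 3.89) in GC-2spd (ts). Its log2 ratio was 0.10, with an interval from -1.32 to 1.52 that includes levels up to 2.87-fold higher and 2.49-fold lower in GC-2spd (ts). The sign was not stable either, since scaling by TMM gave -0.072 and exact matching of tags -0.90.

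**Figure D1:**
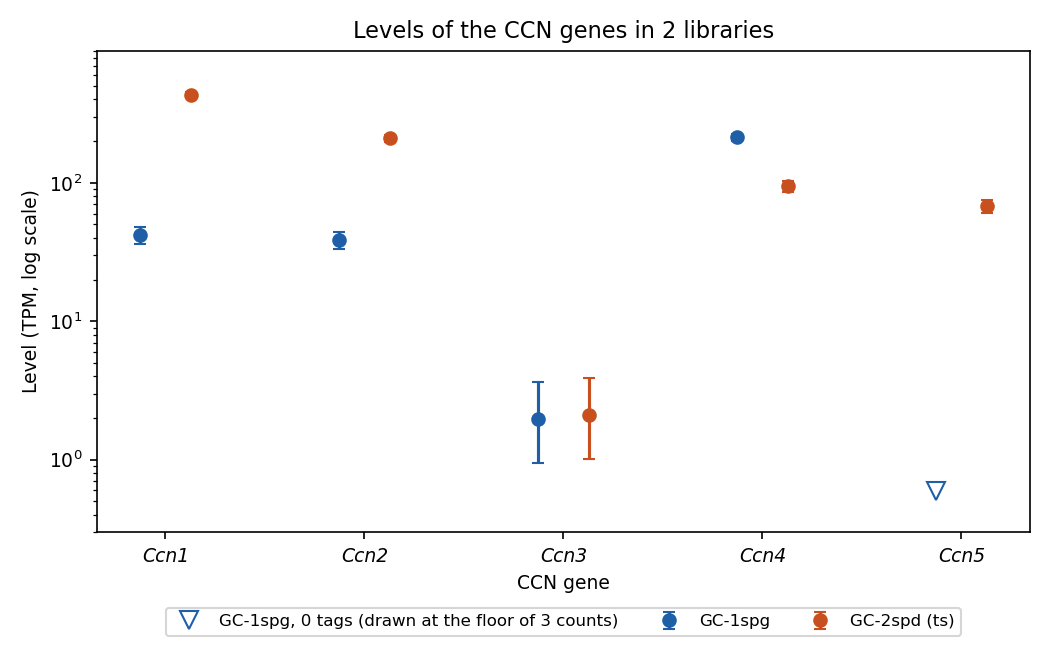
Level of each CCN gene in TPM on a log axis, with exact 95% counting intervals, for GC-1spg (blue) and GC-2spd (ts) (orange), 1 library each. *Ccn1* stands at 41.8 and 434 TPM and *Ccn4* at 214 and 94.4 TPM, *Ccn3* overlaps near 2 TPM, and the open triangle puts *Ccn5* in GC-1spg, which had 0 tags, at the floor of 3 counts (0.591 TPM).

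The thresholds applied to all genes were an FDR of at most 0.001 in the two-sided Audic-Claverie test together with a log2 ratio of at least 1 in absolute size. They were passed by 4 of the 5 CCN genes and by 19.5% of the 14450 genes. *Ccn1*, *Ccn2* and *Ccn5* passed as higher in GC-2spd (ts), against 11.7% of all genes, and *Ccn4* passed as lower, against 7.84%. A gene with no tag in GC-1spg that passed as higher, as *Ccn5* did, made up 1.38% of all genes. Since the same counts chose the members, these figures stand side by side and nothing is read from them. The median log2 ratio over the family was 2.44 with 0.5 tags added to both counts, and over all genes 0.13.

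**Figure D2:**
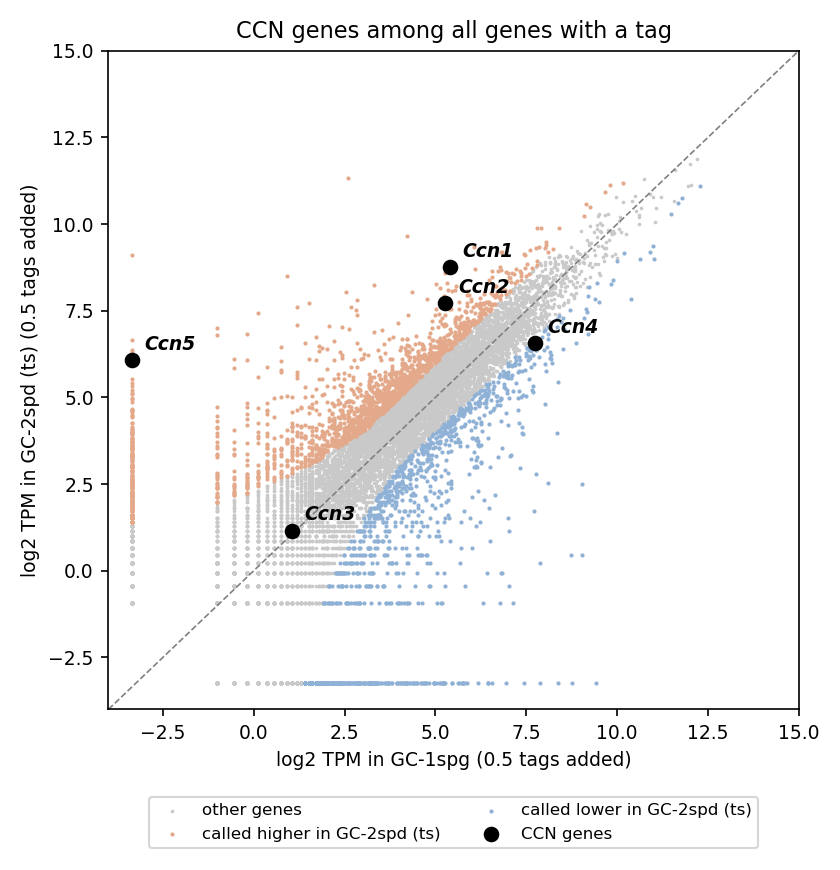
log2 TPM in GC-2spd (ts) against log2 TPM in GC-1spg for 14450 genes, with 0.5 tags added to both counts. CCN genes are black, genes past both thresholds are orange (higher in GC-2spd (ts)) or blue (lower), and the dashed line marks equal levels. *Ccn1* and *Ccn2* lie above the line, *Ccn4* below it, *Ccn3* on it, and *Ccn5* stands at the left edge among genes with 0 tags in GC-1spg.

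The make-up of the family differed between the lines. Summed over the members, GC-1spg held 1503 CCN tags (296 TPM) and GC-2spd (ts) held 3817 (808 TPM), 2.73-fold more (2.57 to 2.89). *Ccn4* gave 72.2% of the family tags in GC-1spg (69.8 to 74.4), followed by *Ccn1* with 14.1% (12.4 to 16.0) and *Ccn2* with 13.0% (11.4 to 14.8), whose intervals overlap. *Ccn3* gave 0.665% there and *Ccn5* none. In GC-2spd (ts) the order was *Ccn1* with 53.8% (52.2 to 55.4), *Ccn2* with 25.9% (24.6 to 27.4), *Ccn4* with 11.7% (10.7 to 12.7), *Ccn5* with 8.36% (7.50 to 9.28) and *Ccn3* with 0.262%, and no neighbouring intervals overlap. *Ccn4* had 5.12 tags for each *Ccn1* tag in GC-1spg, whereas *Ccn1* had 4.60 for each *Ccn4* tag in GC-2spd (ts). *Ccn1* and *Ccn2* were close to each other in GC-1spg, at a ratio of 1.08, and 2.07 apart in GC-2spd (ts).

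Which CATG site was counted was not used in choosing the members. The site nearest the 3′ end gave 93.4% of the *Ccn1* tags in GC-1spg (198 tags) and 97.1% in GC-2spd (ts) (1993 tags). A site in the coding sequence of exon 4 of *Ccn1* gave 6.60% (3.66 to 10.8, 14 tags) against 1.95% (1.40 to 2.65, 40 tags), and these intervals do not overlap. For *Ccn2* the nearest site gave 94.9% (186 tags) and 91.2% (903 tags), and the next site had 7 and 63 tags. All but 9 of the *Ccn5* tags, 97.2%, came from the main tag.

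*Ccn4* was spread over more sites than the other abundant members. The site of its main tag, mismatched forms included, gave 71.9% (69.1 to 74.5) of 1085 tags in GC-1spg and 66.1% (61.5 to 70.5) of 446 tags in GC-2spd (ts). The upstream tag, 3405 bases from the end of the long transcript and the last CATG of another annotated transcript, gave 128 tags or 11.8% (9.94 to 13.9) in GC-1spg and 75 tags or 16.8% (13.5 to 20.6) in GC-2spd (ts). For both sites the intervals of the libraries overlap, which does not show equal use, and the difference was not tested. Tags of both sites were fewer in GC-2spd (ts), so the lower level of *Ccn4* was seen at each of them. Another site, 640 bases from the end, gave 107 tags or 9.86% (8.15 to 11.8) in GC-1spg. In GC-2spd (ts) it gave 41 tags or 9.19% (6.68 to 12.3).

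The low counts of *Ccn3* rest on few molecules. A tag with a mismatch at position 6, written T6G with the reference base first and positions counted from the C of CATG, gave 4 of its tags in GC-1spg against 7 in GC-2spd (ts). It lies in an AT repeat at chr15:54752874-54752894, and the mismatched base is in capitals.
Ccn3 tag with mismatch: catgtGgaatatatatatata
Without it *Ccn3* kept 6 tags and 3 tags.

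**Figure D3:**
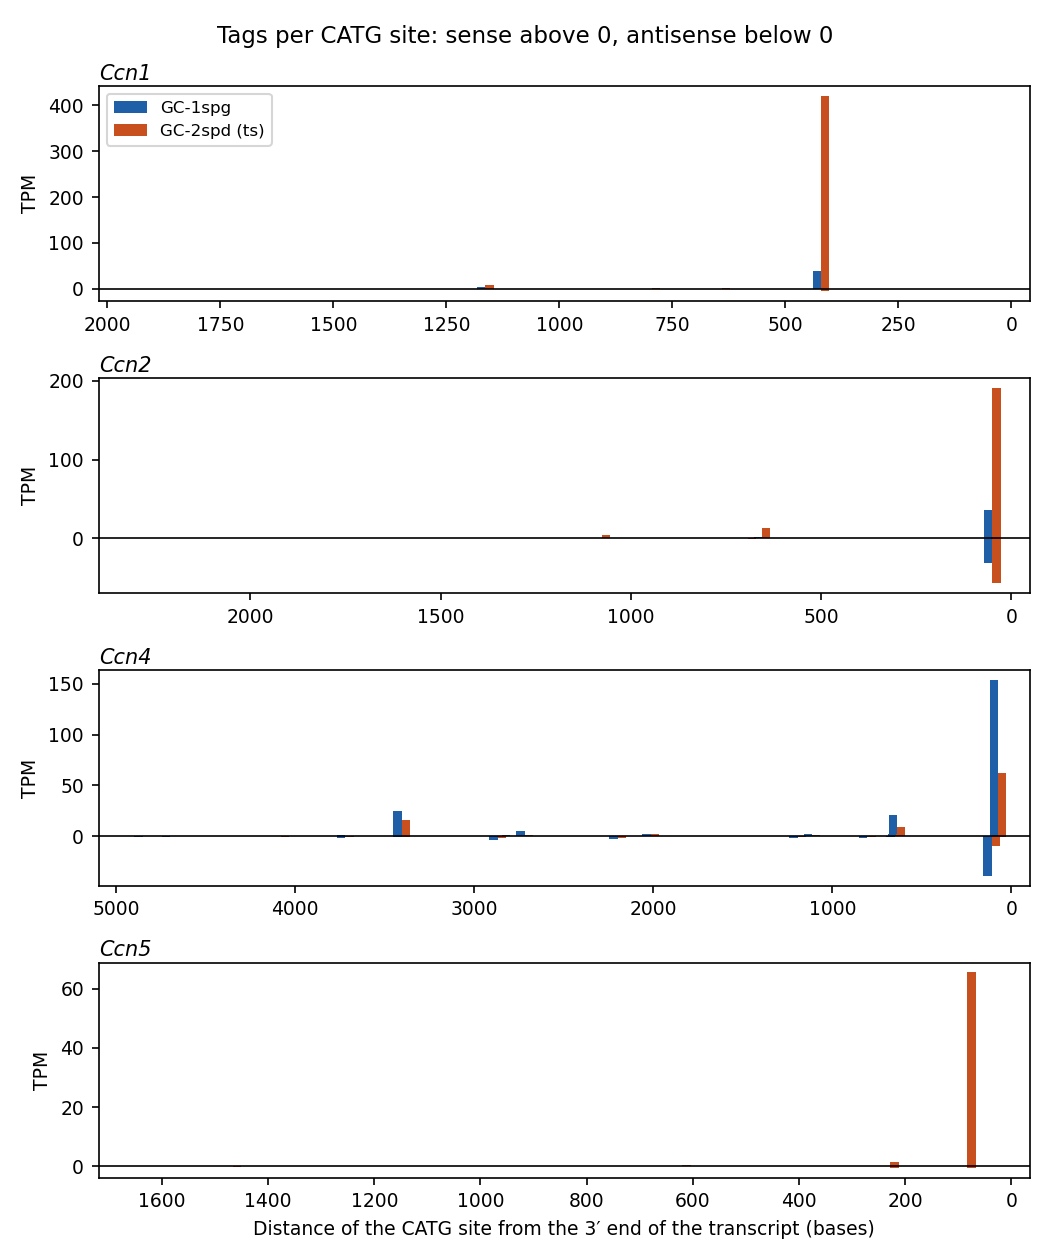
TPM at each CATG site of *Ccn1*, *Ccn2*, *Ccn4* and *Ccn5* against its distance from the 3′ end of the transcript in bases, with sense tags above 0 and antisense tags below 0, GC-1spg in blue and GC-2spd (ts) in orange (each axis has its own scale). Most sense tags fall at the last site, and *Ccn4* has further sense peaks at 640 and 3405 bases. The antisense bars are tall for *Ccn2* and *Ccn4* and low for *Ccn1* and *Ccn5*.

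DGE tags keep the strand, so antisense tags of the family could be counted apart. *Ccn2* had 159 antisense tags in GC-1spg against 273 in GC-2spd (ts), which made 44.8% (39.5 to 50.1) and 21.6% (19.4 to 24.0) of all its tags. Among genes with at least 100 tags, the median antisense share was 8.10% in GC-1spg against 6.64% in GC-2spd (ts), and a share as high as that of *Ccn2* was reached by 4.11% of 5326 genes and 13.2% of 5523 genes. The antisense log2 ratio of *Ccn2* was 0.88 (0.59 to 1.17), beside the sense ratio of 2.44 (2.22 to 2.67). The site that shares its CATG with the main sense tag held 159 and 270 of these counts, and the tag shown here, which matches the reference, had 159 and 265 copies.
Ccn2 antisense tag: CATGtaacttttggtcacact
It lies at chr10:24598612-24598632 on the minus strand. The annotated gene *Gm15270* on the minus strand overlaps *Ccn2* and spans chr10:24549441-24597108, which does not include this tag.

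*Ccn4* had 275 antisense tags in GC-1spg against 76 in GC-2spd (ts), or 20.2% and 14.6% of its tags, with a log2 ratio of -1.75 (-2.14 to -1.38). Most fell at the second CATG from the 3′ end, at chr15:66923074-66923094 on the minus strand, where the libraries held different forms of the tag. The form of the reference had 0 copies in GC-1spg against 47 in GC-2spd (ts), and the form A19T, in the notation used above, had 198 copies and 0 copies. Capitals mark position 19 in the GC-1spg form.
Ccn4 antisense tag, reference form: catgagaaaaatgaggaaagt
Ccn4 antisense tag, GC-1spg form: catgagaaaaatgaggaaTgt
The nearest annotated gene on the minus strand, *Ndrg1*, lies 6117 bases downstream of *Ccn4*. Antisense tags of *Ccn1* (7 and 41), *Ccn3* (2 and 2) and *Ccn5* (0 and 8) were few.

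Of the family, a RefSeq promoter sequence (GRCm38) was at hand for *Ccn1* only, from 250 bases before to 50 bases after the start. It held 1 match to the TEAD motif GGAATG and 1 to the TATA box TATAAA, searched on both strands, and these motifs were found in 14.7% and 13.6% of 32851 promoters of that length. It had no match to the AP-1 motif TGANTCA (7.81% of promoters) or to the CArG box (1.63%). These matches describe letters in the window and are not binding sites.

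Genes of the pathways around the family were taken from lists written with earlier results of these data known. For each, the count past both thresholds stands beside the 11.7% higher and 7.84% lower over all genes.

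Among receptors and co-receptors, 13 of 15 were listed, 2 rose and 4 fell, and the median log2 ratio was 0.34. *Itgb1*, the common beta subunit, rose from 929 to 2194 tags and *Lrp1*, an endocytic receptor that binds *Ccn2*, from 321 to 1074. *Itgb3* fell from 52 tags to 0, *Itga6* from 205 to 27, *Itga2b* from 50 to 16 and the proteoglycan *Sdc4* from 802 to 293. *Itgav*, the partner of *Itgb3* in a classical *Ccn1* receptor, had 812 and 960 tags and did not pass.

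In the Hippo kinase, YAP/TAZ and TEAD list, 15 of 16 were listed, 3 rose and 0 fell in the Audic-Claverie test, with a median of 0.34. The TEAD cofactors *Vgll3* (178 to 1341 tags) and *Vgll4* (39 to 113) and the factor *Tead3* (15 to 42) rose. The coactivator genes *Yap1* (329 and 461 tags) and *Wwtr1* (320 and 401) and the factor *Tead1* (868 and 1011) did not pass. Of 20 YAP/TAZ-TEAD targets, all listed, 3 rose and 1 fell, with a median of 0.35. Tissue factor, *F3*, went from 54 to 390 tags, the muscle ankyrin repeat gene *Ankrd1* from 224 to 1278 and the receptor kinase *Axl* from 319 to 850, while *Igfbp3* fell from 110 to 3.

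Of 11 genes of the SRF/MRTF list, 5 rose and 0 fell, with a median of 1.50. They were the contractile genes *Myl9* (17 to 419 tags) and *Acta2* (50 to 555), *Srf* itself (84 to 248), the serum-response gene *Egr1* (190 to 502) and *Flna* (1345 to 3210). *Acta2* is also a peritubular myoid marker and made up most of the sum of that list given above. Of 12 TGF-beta and Smad genes, 3 rose and 2 fell, with a median of 0.44. The signal transducer *Smad2* (39 to 103 tags) and the inhibitor *Smad7* (308 to 598) were among those that rose, while the co-receptor *Tgfbr3* (217 to 70) and the ligand *Tgfb3* (64 to 21) fell. *Tgfb1* had 106 and 53 tags and did not pass.

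Of 15 beta-catenin and Wnt target genes, 12 were listed, 0 rose in the Audic-Claverie test and 2 fell, with a median of 0.03. The feedback genes *Axin2* (183 to 2 tags) and *Rnf43* (46 to 0) fell, *Ctnnb1* had 66 and 64 tags, and these stand beside *Ccn4*, which was lower, and *Ccn5*, which was listed in GC-2spd (ts) only.

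Of 15 other matricellular genes, 12 were listed, 3 rose and 1 fell, with a median of -0.51. That median takes in genes with at most 5 tags in either library, all with negative ratios that depend on the 0.5 tags added. The CCN median, in a family chosen on its counts, was 2.44. *Thbs1* (195 to 1831 tags), *Thbs2* (26 to 135) and *Postn*, which had 0 and 175 tags, rose, and *Thbs3* fell from 76 to 23. Genes with an IGFBP module outside the family, 10 of 12 listed, had 2 that rose, *Igfbp2* (12 to 85 tags) and *Igfbp7* (0 to 20), and 3 that fell, *Igfbp4* (2645 to 6), *Igfbp3* and *Kazald1* (45 to 3), with a median of -0.11.

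Scaling by TMM shifts every log2 ratio by -0.17. Under it *Smad7* (0.89) and *Tead3* (1.41) no longer passed. *Tgfb1* (-1.07), the matricellular gene *Sparc* (-1.09) and the YAP/TAZ-TEAD target *Dock5* (-1.08) passed as lower. The calls of the other genes on the lists of related genes and of the CCN genes did not change. Calls on the cell type marker lists were not compared under TMM, so their counts by direction hold for the main scaling only.

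**Figure D4:**
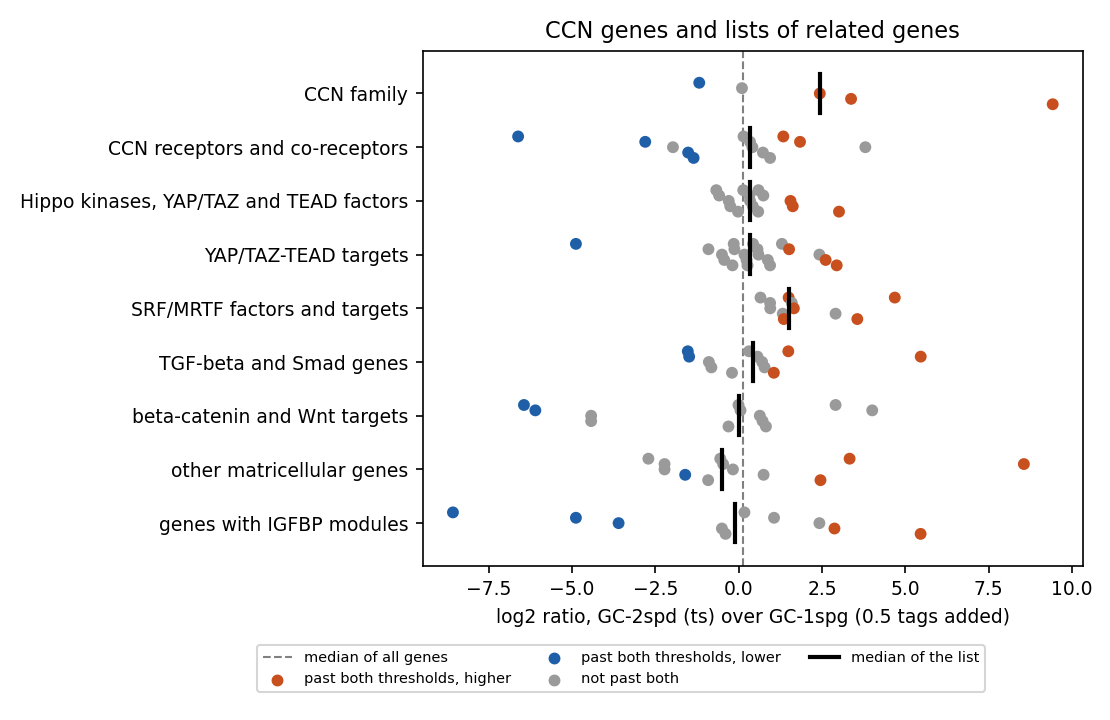
log2 ratio of GC-2spd (ts) over GC-1spg with 0.5 tags added, 1 point a gene, for the CCN family and 8 lists of related genes. Orange and blue points passed both thresholds as higher and lower, grey points did not, black bars are list medians and the dashed line is the median of all genes, 0.13. The CCN family has its median at 2.44 and the SRF/MRTF list at 1.50, and the other lists lie between -0.51 and 0.44.

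The genes closest to *Ccn1* in level over the 2 libraries, out of 7099 genes with at least 100 tags, were *Thbs1* at a distance of 0.204 in log2 TPM (195 and 1831 tags), *Prss23* at 0.459 (203 and 1497 tags) and *Itpripl2* at 0.583 (239 and 1395 tags). Closest to *Ccn5* were *B3galnt1* at 0.0505 (0 and 308 tags), *Hspa1b* at 0.244 (0 and 378 tags) and *Grem1* at 0.275 (0 and 386 tags). With 2 libraries such likeness is a match of 2 levels and no more.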

How the data were processed

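GC-1spg and GC-2spd (ts) cells gave 1 DGE tag library each. The authors filtered adaptor, low quality and single copy tags, and deposited each clean tag with its raw count and a TPM value. In the deposited files TPM is the count scaled to the library total of 5072149 or 4726808 tags, and these depths set the precision.

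Tags of 21 bases were matched to all CATG tags of the transcripts of GENCODE M21 (GRCm38) with at most 1 mismatch, exact matches first, and sense tags of 1 gene only were summed. The UniGene reference of the authors was not used here. Libraries were compared with the Audic-Claverie test (two-sided) and Benjamini-Hochberg adjustment over 14450 genes, since edgeR's quasi-likelihood test could not be fitted without replicates. A gene at 0 was set to 0.01 TPM for the fold threshold only.

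The members and gene lists were chosen with earlier results of these data known. The rule named every CCN gene, 8 pathway genes in any case, up to 3 genes per list and direction with the largest log2 ratio and at least 20 tags, and the 3 genes nearest to *Ccn1* and *Ccn5*. *Sdc4*, *Egr1*, *Flna*, *Sparc*, *Dock5*, *Ddx4*, *Dazl*, *Stra8* and 5 fibroblast markers were named outside it, with their values known. A gene under this rule is not reported here. Alternatives were other matching, scaling (TMM of edgeR 4.0.16, size factors of DESeq2 1.42.0), pseudocounts, filters and tests, including edgeR's exact test with an assumed biological coefficient of variation (BCV). Other software was R 4.3.3, Python 3.11.15, scipy 1.17.1, numpy 2.4.6, matplotlib 3.10.9 and pandas 2.3.3.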

Additional observations from a re-analysis of the deposited data

Results flagged for a closer look

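Antisense tags lie outside the sense counts on which the comparisons rest, and 4 of the members had more than 3 of them in at least 1 library. *Ccn1* had 7 antisense tags in GC-1spg against 41 in GC-2spd (ts), *Ccn2* 159 and 273, and *Ccn4* 275 and 76. *Ccn5* had 8 in GC-2spd (ts). No control library was at hand, so these counts were set only against a floor of 3 counts, and over all genes antisense tags made 12.2% of the tags in GC-1spg against 10.9% in GC-2spd (ts). The source of the antisense tags was not tested.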

How the results depend on the processing

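Of 399 values under alternatives, 354 stayed within the interval of the main value or within 1.5 times the main count, 45 moved and 0 reversed a call. Reversal was judged only for log2 ratios of CCN genes with a call, and a lost call is not a reversal. Using only longest transcripts or coding genes, preferring sense matches or counting shared tags left every CCN tag count unchanged. The CCN ratios and shares under those settings could not move and are among the 354. *Ccn1* ranged from 3.20 to 3.43 on the log2 scale. TMM shifted the median of all genes by -0.17, to 1292 genes higher and 1443 lower (47.2% higher, against 1684 and 1133, 59.8%). It gave -1.35 for *Ccn4* and, against the floor of 3 counts, 6.66 for *Ccn5* (size factors -1.34 and 6.67). That *Ccn5* ratio, 6.83 in the main setting, was 5.46 against the upper limit that allows 1 removed copy per site. The ratio with 0.5 tags added to both counts was 9.42, which depends on the value added and is no bound. With antisense tags included *Ccn2* had 355 and 1263 tags (log2 ratio 1.93, 18.2% and 30.0% of the family), *Ccn4* had 1360 and 522, and *Ccn1* made 11.3% and 49.6%. At the nearest site only, *Ccn2* had 903 tags in GC-2spd (ts), *Ccn4* 910 and 372, *Ccn3* 0 and 3 (0% and 0.0838% of the family), *Ccn1* made 55.7% and *Ccn4* 10.4% in GC-2spd (ts). Exact matching left *Ccn3* 3 tags in GC-2spd (ts), 0.0792% of the family and 100% at its nearest site.

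Counting noise alone underlies the calls, and the exact test of edgeR under an assumed BCV shows how they thin out. Of 2817 genes, 1000 passed at a BCV of 0.2 and 244 at 0.4, and of 33 genes on the lists of related genes 19 and 7. Of the CCN genes *Ccn1*, *Ccn2* and *Ccn5* passed at 0.2, and 1, *Ccn5*, at 0.4. No paired analysis was possible because each line has 1 library and the labels carry no replicate numbers. Depth limits *Ccn3* most, and a gene without a tag may have had single copies.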

Other observations

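The exchange of tag forms seen at the antisense site of *Ccn4* was counted over all tags. Of 12380 reference tags with at least 20 copies in each library, 105 (0.848%) had no form in common between the libraries. In all 105 the reference form led in GC-2spd (ts) only, and in 0 it led in GC-1spg only. The count took both strands, so it includes the *Ccn4* antisense site compared above, and any sense tags among the 105 enter the gene counts. The cause was not tested.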
